A study of Mus musculus with 24 samples.

Results

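The 10 genes described here encode enzymes and a chaperone that hydroxylate, fold and crosslink collagen. They are the prolyl 4-hydroxylase alpha subunits P4ha1, P4ha2 and P4ha3, the lysyl hydroxylases Plod1, Plod2 and Plod3, the collagen chaperone Serpinh1 and the lysyl oxidases Lox, Loxl1 and Loxl2. They were chosen by name, and 10 of 10 were found among the 25471 gene symbols of the series. RNA was sequenced from 24 samples of cells sorted from mouse embryonic brains. E11.5 pericytes came from 4 mutant samples, genotype Pdgfrb-Cre, Alk5(flox/flox), Zs/+, and from 4 control samples, which carried Pdgfrb-Cre and the Zs reporter with Alk5(flox/+). E13.5 pericytes came from 4 mutant and 4 control samples of these genotypes, and E13.5 endothelial cells from 3 mutant and 5 control samples of the same genotypes. Alk5 is another name of Tgfbr1, a type I receptor for TGF-beta. Every group thus carried Cre, the reporter and at least 1 floxed allele. Cre was driven by Pdgfrb, a gene of pericytes and of other mural and mesenchymal cells, and the labels class the pericyte samples as mesenchymal cells. The labels give the disease state GMH-IVH for mutants and normal for controls.

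Newly made procollagen chains are modified inside the endoplasmic reticulum before they leave the cell. Prolyl 4-hydroxylase, a complex of alpha and beta subunits, hydroxylates prolines, which lets the triple helix stay folded at body temperature, and lysyl hydroxylases modify lysines that later carry sugars and crosslinks. The chaperone HSP47, the product of Serpinh1, binds the folded helix until export. Outside the cell, lysyl oxidases convert lysines of collagen and elastin into aldehydes that form covalent crosslinks. In brain vessels, pericytes and endothelial cells share a basement membrane whose collagen chains need these steps.

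Each level below is the authors' deposited mean for a group, read here as normalized read counts although the headers state no unit. Values per sample, their spread and the read depth were not analysed here. Every log2 ratio is mutant over control. The standard errors (SE) and 95% intervals are those implied by the authors' ratio and p. Genes are called changed at an adjusted p under 0.05, taken over all genes of a table. Tgfbr1, measured over the whole gene, had log2 ratios of 0.43, 0.03 and -0.11 at E11.5, at E13.5 and in endothelial cells, where the authors' deposited tables give it adjusted p of 0.399, 1.00 and 0.859, so the tables do not check the deletion itself. The RNA labelled endothelial had its 15 endothelial markers at a median percentile of 97.7 in mutants and 98.4 in controls and its pericyte markers at 30.1 and 31.2, among all genes of the authors' deposited table. In E11.5 pericytes the pericyte markers lay at a median percentile of 67.5 in mutants and 75.3 in controls, the endothelial markers at 32.7 and 42.0 and those of fibroblasts and meninges at 85.0 and 89.8. In E13.5 pericytes the pericyte markers lay at a median percentile of 82.1 in mutants and 82.1 in controls, endothelial markers at 44.0 and 39.99 and markers of fibroblasts and meninges at 97.4 and 97.0 by the authors' deposited table. In bulk RNA, fewer cells of a type and less RNA per cell cannot be told apart.

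P4ha3 was the member that changed: at E11.5 its RNA fell in mutant pericytes to 0.327 times the control level. No other member passed the threshold in that comparison, and none did in E13.5 pericytes or endothelial cells. Loxl1 and Lox had the next largest negative ratios at E11.5, Loxl2 the largest positive ratio in E13.5 pericytes, and Plod2 and P4ha2 the lowest ratios in endothelial cells with wide errors. Serpinh1 was among the most abundant RNAs of every group.

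**Figure D1:**
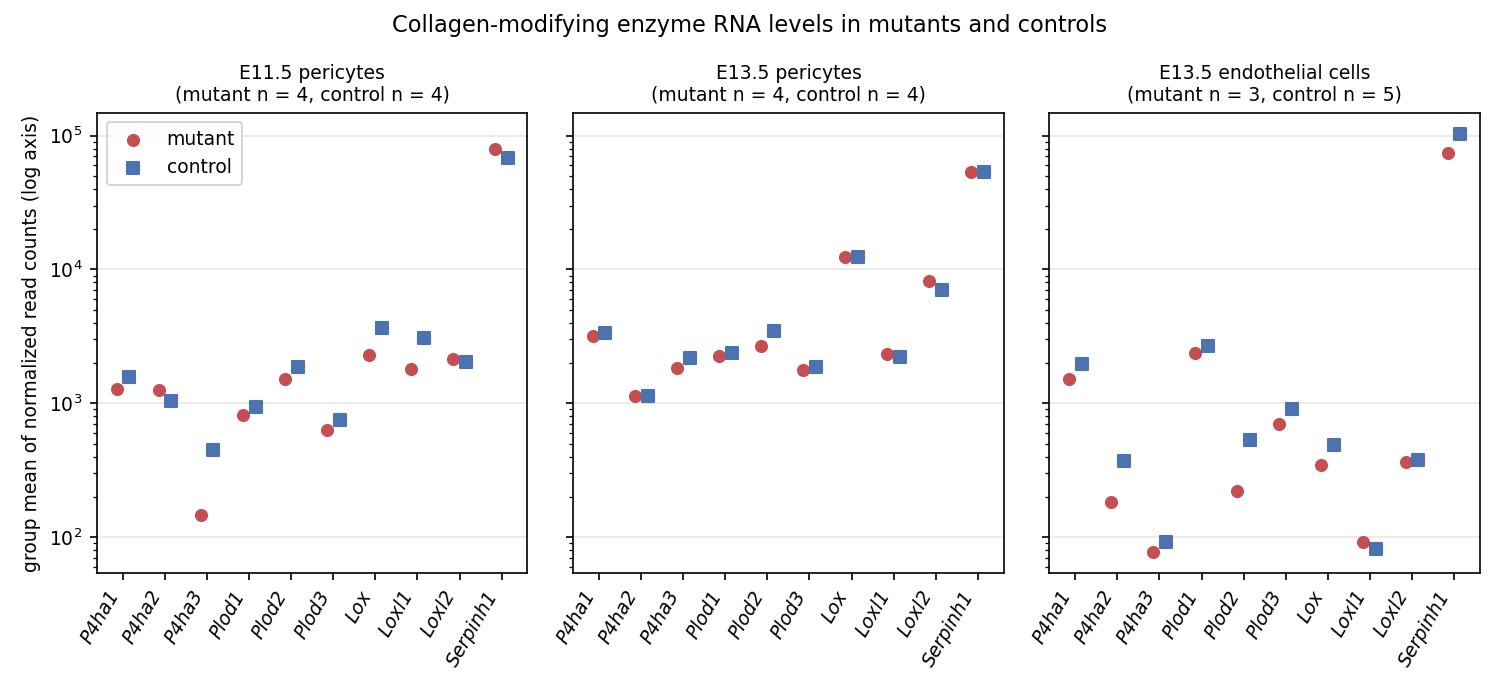
Authors' group means, read as normalized read counts (log axis), for the 10 genes, mutant (red circles) left of control (blue squares), in pericytes of both stages and in endothelial cells. No error is drawn because the tables give no spread per group. P4ha3 at E11.5 stands apart, at 146 in mutants and 447 in controls, and Serpinh1 lies far above the others in all panels.

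P4ha3 and P4ha1 encode catalytic alpha subunits of prolyl 4-hydroxylase. P4ha3 lies on chromosome 7, from 100285520 to 100319699 on the plus strand of mm10, and P4ha1 on chromosome 10, from 59323296 to 59373304 on the plus strand. The 250 bases before their RefSeq transcript starts (GRCm38.p6) are shown because P4ha3 is the member called at E11.5, with its paralog P4ha1, which was not called, beside it. The difference between the paralogs was not tested. The windows are chr7:100285270-100285519 for P4ha3 and chr10:59323046-59323295 for P4ha1, both on the plus strand, and capitals mark a match to any of 3 searched motifs on either strand.
P4ha3: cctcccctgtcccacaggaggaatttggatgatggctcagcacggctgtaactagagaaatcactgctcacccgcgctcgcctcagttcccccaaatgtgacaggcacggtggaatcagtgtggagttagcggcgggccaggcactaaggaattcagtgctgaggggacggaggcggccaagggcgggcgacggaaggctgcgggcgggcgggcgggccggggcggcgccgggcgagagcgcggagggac
P4ha1: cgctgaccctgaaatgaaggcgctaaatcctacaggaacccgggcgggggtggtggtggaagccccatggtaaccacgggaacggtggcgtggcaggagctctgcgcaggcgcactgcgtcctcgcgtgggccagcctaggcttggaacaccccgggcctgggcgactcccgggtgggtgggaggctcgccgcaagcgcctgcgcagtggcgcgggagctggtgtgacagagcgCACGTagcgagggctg
The motifs were ACGTG, a form of the core of a hypoxia response element, then CAGAC, a core that SMAD proteins bind, and finally CCAAT, the core of a common promoter box. The form GCGTG of the hypoxia core was not searched, and its letters occur unmarked in the P4ha1 window. P4ha3 holds none of them in this window. P4ha1 holds 1, ACGTG, on the minus strand, 12 bases before the start, and nothing overlaps it. P4ha3 and P4ha1 are 67.2% and 69.6% G and C in this window. Among the 6 members with a RefSeq promoter, ACGTG was found in 4, against 16.6% of all 32851 promoter windows, the SMAD core in 2, against 42.2%, and the CCAAT core in 1, against 33.8%. A match of letters is not a bound site.

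At E11.5, P4ha3 averaged 146 in mutant and 447 in control pericytes by the authors' deposited table. The ratio was 0.327 (95% interval 0.233 to 0.459) and the log2 ratio -1.61 (SE 0.25), with an adjusted p of 3.17e-07 from the authors' DESeq2. Genes lower in mutants at this threshold made up 2.7% of the 19301 genes tested, so 1 of 10 members stood against that share. The call rests on the authors' estimate of the spread: with the SE rescaled so that the median test statistic of all genes matched a standard normal, the adjusted p was 0.0569. Its percentile among gene levels was 46.6 in mutants and 64.9 in controls.

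Several cell type markers were called at E11.5 as well, where 2.7% of all genes were called lower and 0.642% higher in mutants. Of 14 tested fibroblast and meningeal markers 6 fell and 1 rose, the median log2 ratio was -0.91 and the summed level was 83881 in mutants and 109771 in controls, by the authors' deposited table. Of 10 markers of cartilage and bone 2 fell, Runx2 and Dlx5, with a summed level of 35304 in mutants and 37419 in controls, of 14 pericyte markers 5 fell, with 13886 and 17755, of 13 myeloid markers 3 fell, with 1343 and 2627, and of 11 endothelial markers 1 fell, with 755 and 1337, by the authors' deposited table. No tested marker of these lists was at 0, and their part in the P4ha3 value was not tested. None of 9 neural and 4 erythroid markers tested at E11.5 was called. The summed level was 5769 in mutants and 5991 in controls for neural markers, and 43.3 and 109 for erythroid markers.

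In E13.5 pericytes P4ha3 averaged 1839 in mutants and 2160 in controls by the authors' deposited table, a log2 ratio of -0.23 (95% interval -0.47 to 0.01, unadjusted p = 0.0587, adjusted p = 1.00, DESeq2). The mutant to control ratio of P4ha3 differed between stages at this threshold, without the rescaled SE. The E13.5 log2 ratio minus the E11.5 log2 ratio was 1.38 (SE 0.28, 95% interval 0.83 to 1.92), with an adjusted p of 0.000736 by a normal test with Benjamini-Hochberg adjustment over the 18267 genes tested at both stages, of which 1.43% were called. That adjusted p became 0.424 with the rescaled SE. In E13.5 pericytes none of 14 fibroblast markers was called (DESeq2), and 2 had an unadjusted p under 0.05. Of 14 pericyte markers 1 rose and 1 fell, and of 13 endothelial markers 1 fell, where 0.224% of all genes rose and 0.164% fell. None of 10 cartilage and bone, 14 myeloid, 10 neural and 6 erythroid markers tested was called. The erythroid markers with a value summed to 2081 in mutants and 474 in controls. Xist, an RNA of female cells named outside the rule, averaged 5.73 in mutants and 36145 in controls by the authors' deposited table. Sex and genotype thus cannot be told apart in E13.5 pericytes. Xist was not listed for E11.5 pericytes or endothelial cells, so sex was not checked there. In endothelial cells P4ha3 was low, averaging 77.5 in mutants and 92.4 in controls, with a log2 ratio of -0.25 (95% interval -0.92 to 0.41) by the authors' deposited table.

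P4ha1 averaged 1279 in mutant and 1575 in control pericytes at E11.5, 3203 and 3324 at E13.5, and 1531 and 1973 in mutant and control endothelial cells, by the authors' deposited tables. Its log2 ratios were -0.30, -0.05 and -0.37, each with a 95% interval that holds 0. P4ha2, the remaining alpha subunit gene, averaged 1263 in mutant and 1037 in control pericytes at E11.5 and 1125 and 1142 at E13.5 by the authors' deposited tables. Mutant endothelial cells had a P4ha2 mean of 184 and controls one of 369, yet the log2 ratio had an SE of 0.75 and a 95% interval of -2.47 to 0.47. In pericytes the P4ha2 log2 ratio was 0.28 at E11.5 (95% interval -0.17 to 0.74) and -0.02 at E13.5 (95% interval -0.22 to 0.17), so no direction was shown in any table.

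Set per length of transcript, the alpha subunits made up different mixtures in the cell groups. P4ha3 contributed 7.71% of the family's summed level per length in mutant and 20.3% in control pericytes at E11.5, 39.8% and 42.9% at E13.5, and 6.85% and 5.94% in mutant and control endothelial cells. P4ha1 held 40.04% and 42.6% at E11.5 and 41.1% and 39.3% at E13.5 in mutant and control pericytes, and 80.4% and 75.4% in mutant and control endothelial cells. P4ha2 held 52.3% in mutant and 37.1% in control pericytes at E11.5, and 19.1% and 17.8% at E13.5. In endothelial cells its share was 12.8% in mutants and 18.6% in controls. These shares are ratios within a table and do not depend on its scaling, but they carry no error, and they depend on the length used. With the union of exons as the length, the P4ha2 share was 36.2% in mutant and 24.0% in control pericytes at E11.5, 11.7% and 10.9% at E13.5, and 6.93% and 10.4% in mutant and control endothelial cells. P4ha1 then led in E11.5 mutants, with 55.5%. In E13.5 control pericytes the lead passed from P4ha3 to P4ha1, with 48.1% for P4ha1 and 41.0% for P4ha3. P4hb, the gene of the beta subunit, which also works alone as protein disulfide isomerase, exceeded the summed alpha subunits per length 5.61-fold in mutant and 4.35-fold in control pericytes at E11.5, 3.93-fold and 3.67-fold at E13.5, and 9.83-fold and 7.94-fold in mutant and control endothelial cells.

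**Figure D2:**
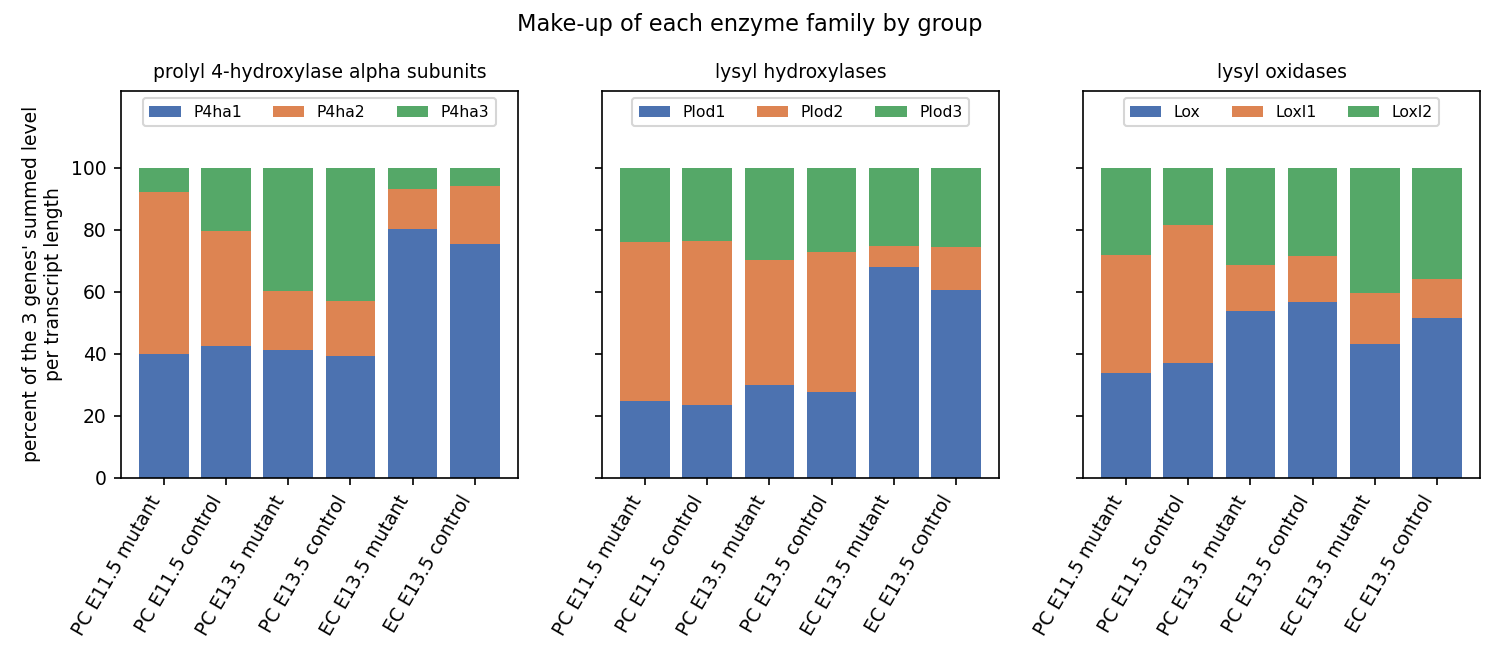
Share of each gene in the summed level per transcript length of its family (percent, without error bars), for prolyl 4-hydroxylase alpha subunits, lysyl hydroxylases and lysyl oxidases, with each mutant bar left of its control bar; PC are pericytes and EC endothelial cells. P4ha3 has 7.71% in mutant and 20.3% in control pericytes at E11.5, and P4ha1 and Plod1 make up most of their families in endothelial cells.

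Among the lysyl hydroxylases, none was called in any comparison, and all 3 had negative log2 ratios in each of the 3 tables. Plod1, which acts on lysines of the helix, averaged 821 in mutant and 930 in control pericytes at E11.5, 2246 and 2394 at E13.5, and 2388 and 2666 in mutant and control endothelial cells, by the authors' deposited tables. Its log2 ratios of -0.18, -0.09 and -0.16 all had intervals that include 0. Plod3, which also transfers sugars to hydroxylysine, averaged 631 in mutant and 749 in control pericytes at E11.5 and 1779 and 1870 at E13.5 by the authors' deposited tables, with log2 ratios of -0.25 and -0.07. In endothelial cells Plod3 averaged 706 in mutants and 899 in controls, with a log2 ratio of -0.35 (SE 0.15, unadjusted p = 0.0215, adjusted p = 0.154, DESeq2) by the authors' deposited table. With group means scaled to the same sum, which shifts all log2 ratios of that table by -0.13, the Plod3 value was -0.47. It then passed the threshold (adjusted p = 0.0224, normal test). With the rescaled SE, and no such scaling, the adjusted p of Plod3 was 0.857 (normal test). The summed means behind the scaling were 22993900 in mutant and 21082900 in control endothelial cells, of which the erythroid markers made up 1716820 and 64010. Scaling without the erythroid markers was not tested.

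Plod2, the lysyl hydroxylase of the telopeptides at the ends of collagen chains, averaged 1509 in mutant and 1859 in control pericytes at E11.5 by the authors' deposited table (log2 ratio -0.30, 95% interval -0.62 to 0.02). At E13.5 Plod2 averaged 2689 in mutant and 3489 in control pericytes by the authors' deposited table (log2 ratio -0.38, 95% interval -0.81 to 0.06). Mutant endothelial cells had a Plod2 mean of 220 and controls one of 535, and the log2 ratio of -1.28 had an SE of 0.73 (adjusted p = 0.314, DESeq2) by the authors' deposited table. Per length, Plod2 was 51.2% of this family in mutant and 52.7% in control pericytes at E11.5 and 40.2% and 45.2% at E13.5. In endothelial cells Plod1 led instead, with 67.9% in mutants and 60.8% in controls, and Plod2 held 6.99% in mutants and 13.6% in controls.

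The wide errors of P4ha2 and Plod2 in endothelial cells stood beside wider ones of cartilage genes. The cartilage collagen genes Col2a1 and Col11a1 had log2 ratios of -3.11 (SE 1.34) and -3.13 (SE 1.28), and the cartilage proteoglycan gene Acan one of -3.89 (SE 1.52), none called, by the authors' deposited table. Among all genes tested in endothelial cells, 5.11% rose and 2.19% fell. Over the whole list of 10 cartilage and bone markers, 5 had ratios below 1, the median log2 ratio was -0.07, 1 rose (Spp1, 2.80) and none fell. Their summed level was 5308 in mutant and 10872 in control endothelial cells, of which Col2a1 made up 481 in mutants and 4151 in controls, and no marker was at 0, by the authors' deposited table. Their part in the P4ha2 and Plod2 values was not tested.

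Serpinh1 averaged 79706 in mutant and 68475 in control pericytes at E11.5 by the authors' deposited table, a log2 ratio of 0.22 (95% interval -0.20 to 0.64). At E13.5 the means in pericytes were 52992 in mutants and 53227 in controls, with a log2 ratio of -0.01 (95% interval -0.14 to 0.13), the tightest estimate among the 10 genes, by the authors' deposited table. In endothelial cells Serpinh1 averaged 74217 in mutants and 102862 in controls, a log2 ratio of -0.47 (SE 0.22, 95% interval -0.91 to -0.04, unadjusted p = 0.0336, adjusted p = 0.200, DESeq2) by the authors' deposited table. By mean level Serpinh1 ranked 3 in mutant and 3 in control pericytes at E11.5, 18 and 18 at E13.5, and 13 and 5 in mutant and control endothelial cells, out of 21844, 23775 and 20520 genes with a value. The genes that ranked above it in mutant and not in control endothelial cells were the haemoglobin genes Hba-a1, Hbb-y, Hba-a2 and Hba-x and also Ubb, Tmsb4x, mt-Rnr2 and Ftl1. All 10 erythroid markers rose in that comparison, and their summed level was 1716820 in mutants and 64010 in controls by the authors' deposited table. Of all genes tested there, 5.11% rose and 2.19% fell. Of 14 myeloid markers 3 rose, with a summed level of 25935 in mutants and 15614 in controls, and of 15 endothelial markers 1 fell, with 134364 and 155731. The part of these cells in the Serpinh1 value was not tested.

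Lox and Loxl1 had the largest negative log2 ratios at E11.5 after P4ha3. Lox, the oxidase that crosslinks both collagen and elastin, averaged 2299 in mutant and 3673 in control pericytes by the authors' deposited table, a log2 ratio of -0.68 (SE 0.32, unadjusted p = 0.0338, adjusted p = 0.237, DESeq2). Loxl1, which acts on elastic fibres, averaged 1798 in mutants and 3061 in controls there, a log2 ratio of -0.77 (SE 0.26, 95% interval -1.27 to -0.27, unadjusted p = 0.00263, adjusted p = 0.0648, DESeq2) by the authors' deposited table. Loxl2, which can crosslink collagen IV of basement membranes, averaged 2127 in mutants and 2044 in controls by the authors' deposited table, and its log2 ratio of 0.06 had an interval of -0.36 to 0.48. The Loxl1 result depended on the setting: with group means scaled to the same sum its adjusted p was 0.0407 (normal test). With the rescaled SE it was 0.995 (normal test).

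At E13.5 the lysyl oxidases of pericytes had narrow errors. Lox averaged 12463 in mutants and 12438 in controls by the authors' deposited table, with a log2 ratio of 0.00 (95% interval -0.18 to 0.18), and Loxl1 averaged 2347 and 2222, with a log2 ratio of 0.08 (95% interval -0.06 to 0.22). Loxl2 averaged 8143 in mutants and 6985 in controls, a log2 ratio of 0.22 (SE 0.07, 95% interval 0.08 to 0.36, unadjusted p = 0.00216, adjusted p = 0.297, DESeq2) by the authors' deposited table. With the rescaled SE the adjusted p of Loxl2 was 0.0531 (normal test), still not called. In endothelial cells Lox averaged 348 in mutants and 485 in controls, Loxl1 91.4 and 81.9 and Loxl2 365 and 377 by the authors' deposited table, with log2 SE of 0.63, 0.64 and 0.23. Within the family and per length, Lox made up 33.9% in mutant and 37.1% in control pericytes at E11.5 and 54.0% and 56.9% at E13.5, while Loxl1 made up 38.1% and 44.5% at E11.5 and 14.6% and 14.6% at E13.5.

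**Figure D3:**
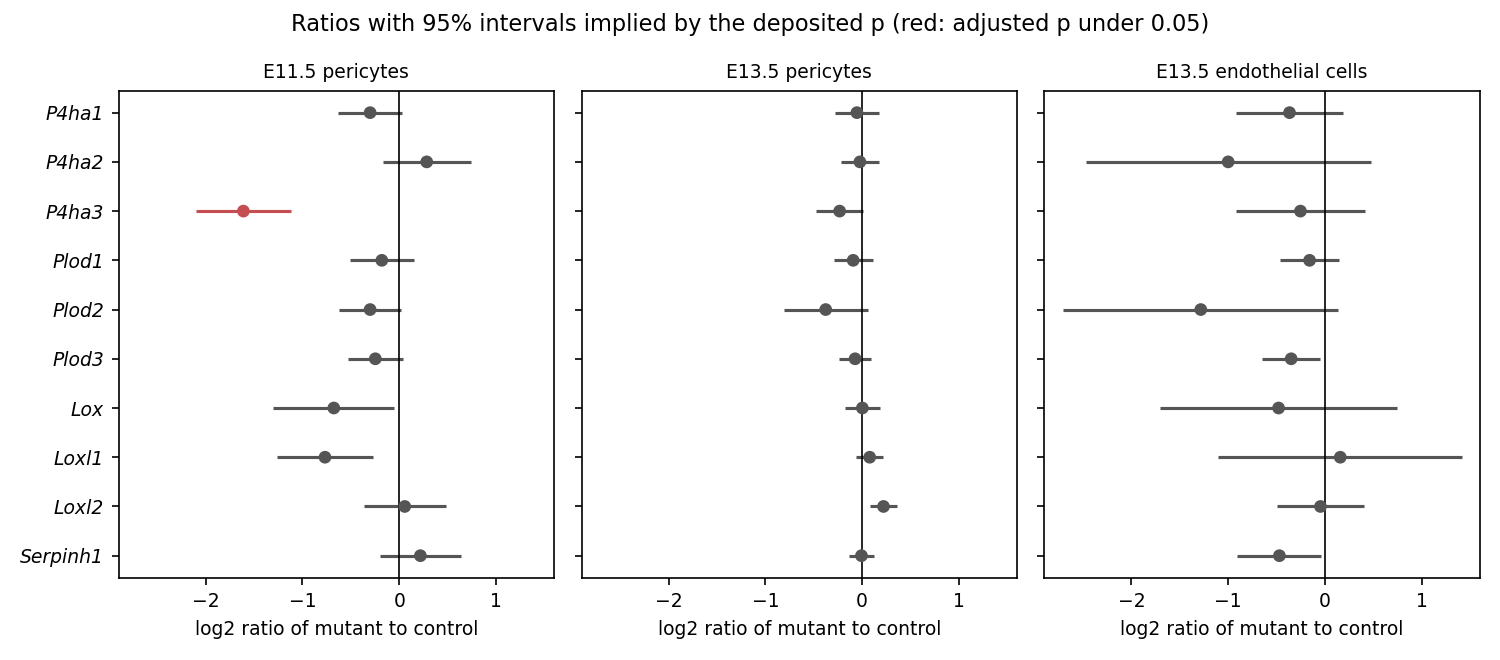
Log2 ratio of mutant to control for the 10 genes in the 3 comparisons, with 95% intervals implied by the authors' p as lines; red marks an adjusted p under 0.05. P4ha3 at E11.5 (-1.61) is the 1 red point, the median SE is smallest in E13.5 pericytes (0.10), and the intervals of P4ha2, Plod2, Lox and Loxl1 are wide in endothelial cells.

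Counted over the 10 genes, 1 fell and none rose at E11.5, where 3.35% of all genes were called (2.7% lower and 0.642% higher in mutants), and 3 had an unadjusted p under 0.05, against 17.7% of all genes (the authors' DESeq2). Their median log2 ratio was -0.27, against 0.00 for all genes tested, and 7 of 10 had a ratio below 1, against 50.4% of all genes. In E13.5 pericytes 0 of 10 were called with DESeq2, against 0.388% of all genes (0.164% lower and 0.224% higher in mutants), and 1 had an unadjusted p under 0.05, against 4.06%. The median was -0.04, against 0.00 for all genes, and 7 of 10 ratios were below 1, against 49.6%. In endothelial cells 0 of 10 were called with DESeq2, against 7.3% of all genes (2.19% lower and 5.11% higher in mutants), and 2 had an unadjusted p under 0.05, against 20%. The median there was -0.36, against -0.01 for all genes, and 9 of 10 ratios were below 1, against 51.7%. The median SE of the 10 genes was 0.21, 0.10 and 0.31 in the 3 tables in this order, so a change of a given size could be seen least easily in endothelial cells. All 10 genes were tested in each table.

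**Figure D4:**
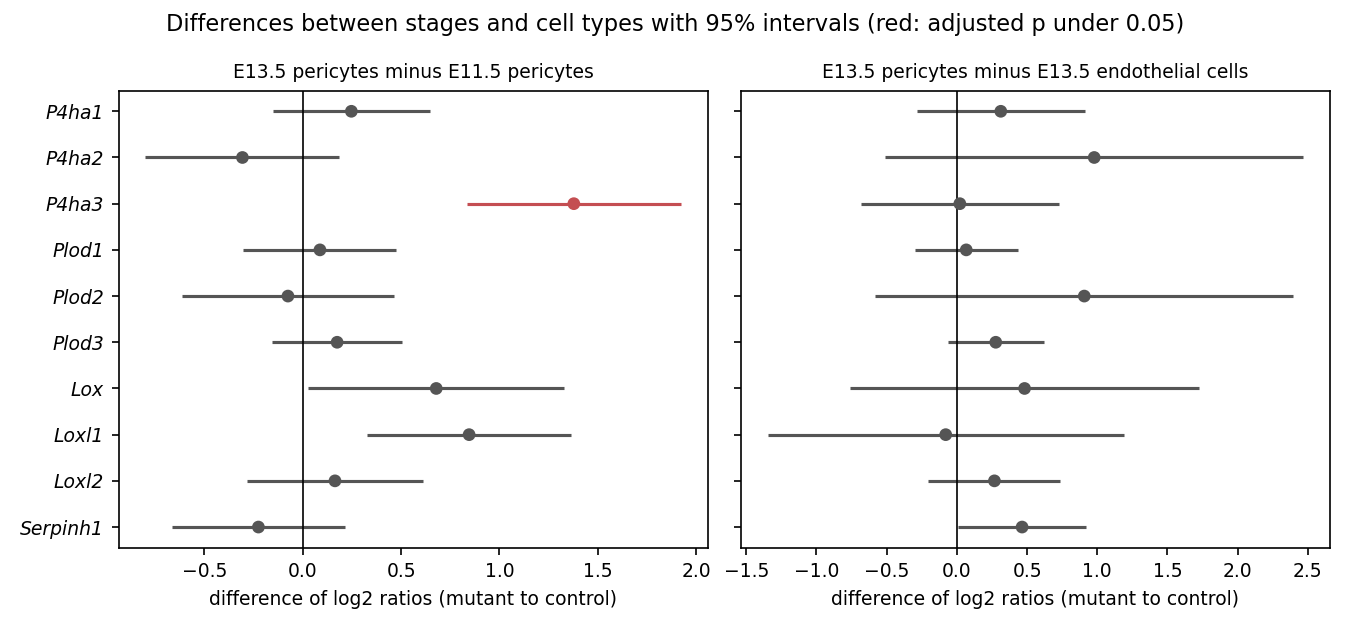
Difference of the log2 ratios (mutant to control) between stages in pericytes and between cell types at E13.5 for the 10 genes, with 95% intervals as lines; red marks an adjusted p under 0.05. P4ha3 differs between stages, by 1.38, and the intervals of Lox and Loxl1 between stages and of Serpinh1 between cell types lie above 0 without passing the adjusted threshold.

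Apart from P4ha3, no member differed between stages or cell types past the threshold. Loxl1 had an E13.5 minus E11.5 difference of 0.85 (SE 0.27, 95% interval 0.33 to 1.37) with an adjusted p of 0.0712, and Lox one of 0.68 (SE 0.33) with an adjusted p of 0.351, by the normal test with Benjamini-Hochberg adjustment. Between E13.5 pericytes and endothelial cells 0 of 10 were called by this test, against 3.94% of 16920 genes, and 1 had an unadjusted p under 0.05, against 15.6%. That gene was Serpinh1, with a pericyte minus endothelial difference of 0.46 (SE 0.23, adjusted p = 0.305, the same normal test). The intervals for P4ha2 (-0.51 to 2.47) and Plod2 (-0.58 to 2.40) leave differences of either sign possible.

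A list of 32 other genes of collagen processing was set beside the members. At E11.5, 31 were tested with DESeq2 by the authors, 1 fell and none rose, where 2.7% of all genes fell and 0.642% rose, and the median log2 ratio was -0.01, against 0.00 for all genes. The gene that fell was Bmp1, whose protease trims procollagen ends and activates lysyl oxidase precursors, averaging 486 in mutants and 940 in controls, at a log2 ratio of -0.95 (SE 0.20, adjusted p = 0.000409) by the authors' deposited table. Bmp1 also differed between stages, by 0.88 (SE 0.21, adjusted p = 0.0114 by the normal test), as the 1 of 31 genes called in that test. Of all 18267 genes tested at both stages, 1.43% were called. With the rescaled SE neither Bmp1 value passed the threshold (adjusted p = 0.430 at E11.5 and 0.895 between stages). The smallest p in each remaining group belonged to the prolyl 3-hydroxylase family gene P3h3 (log2 ratio -1.31, SE 0.43, adjusted p = 0.0612), the endoplasmic reticulum chaperone gene Hspa5 (0.50, SE 0.18, adjusted p = 0.0969), the collagen galactosyltransferase gene Colgalt1 (0.05), Loxl3 (-0.23) and Creb3l1, a transcription factor gene (-0.80, SE 0.32, adjusted p = 0.147), by the authors' deposited table from DESeq2.

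At E13.5, 0 of 32 were called in pericytes with DESeq2, against 0.388% of all genes, 5 of 32 had an unadjusted p under 0.05, against 4.06% of all genes, and the median log2 ratio was -0.03, by the authors' deposited table. The smallest p within each group belonged to P3h2 (log2 ratio 0.35), the ion channel gene Tmem38b (-0.28), Colgalt2 (-0.28), Loxl3 (-0.23), the procollagen protease gene Adamts14 (0.18) and Creb3l1 (0.18) by the authors' deposited table. In endothelial cells 1 of 30 fell and none rose, where 2.19% of all genes fell and 5.11% rose, and the median log2 ratio was -0.21, against -0.01 for all genes. It was Mia3, which encodes the export receptor TANGO1 for procollagen, averaging 1080 in mutants and 1394 in controls, at a log2 ratio of -0.37 (SE 0.12, adjusted p = 0.0413, DESeq2) by the authors' deposited table, and its adjusted p was 0.647 with the rescaled SE. P3h1 (-0.67), the prolyl isomerase family gene Fkbp9 (-0.57), Colgalt1 (-0.36), Loxl3 (-0.47) and Adamts3 (-1.34) had the smallest p of the other groups, with no call, by the authors' deposited table.

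The collagens that these enzymes modify moved at E11.5 as follows, where 2.7% of all genes were called lower and 50.4% had a ratio below 1. Of 9 fibrillar collagen genes all 9 had ratios below 1 and 1 was called lower, Col1a2, averaging 10586 in mutant and 17120 in control pericytes, at a log2 ratio of -0.69 (SE 0.20, adjusted p = 0.0255, DESeq2) by the authors' deposited table. Of 5 tested basement membrane collagen genes Col4a6 fell, averaging 45.9 in mutants and 85.9 in controls (log2 ratio -0.90, SE 0.27, adjusted p = 0.0310, DESeq2), by the authors' deposited table. The medians of the fibrillar and basement membrane collagens were -0.52 and -0.44, against 0.00 for all genes. Among 8 elastic fibre genes (median -0.38), whose products lysyl oxidases also crosslink or join, the elastin gene Eln fell, averaging 72.2 in mutants and 233 in controls (log2 ratio -1.69, SE 0.32), as did Mfap4 (-0.66, SE 0.19), by the authors' deposited table. Col4a6 and Eln also differed between stages, by 1.00 and 1.64 (adjusted p = 0.0394 and 0.0194, the normal test with Benjamini-Hochberg adjustment). With the rescaled SE these stage calls were lost (adjusted p = 1.00 and 0.730), as were the E11.5 calls of Col1a2, Col4a6, Eln and Mfap4 (adjusted p = 0.995, 0.995, 0.267 and 0.981). At E13.5 Col15a1, a basement membrane collagen gene, was the 1 called gene of the fibrillar and basement membrane collagen lists in pericytes, with a log2 ratio of -2.94, and again in endothelial cells, with -3.32, by the authors' deposited tables. The Col15a1 calls stayed with the rescaled SE (adjusted p = 1.28e-08 in pericytes and 6.89e-23 in endothelial cells, normal test). Of all genes, 0.164% were called lower in E13.5 pericytes and 2.19% in endothelial cells. Col3a1 had the smallest p of the fibrillar collagens in E13.5 pericytes (log2 ratio 0.16, adjusted p = 1.00) and Col11a1 in endothelial cells (adjusted p = 0.121), and Mfap4 (-0.36, adjusted p = 0.0672) and Fbln5 (0.40, adjusted p = 0.576) had those of the elastic fibre genes, by the authors' DESeq2.

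**Figure D5:**
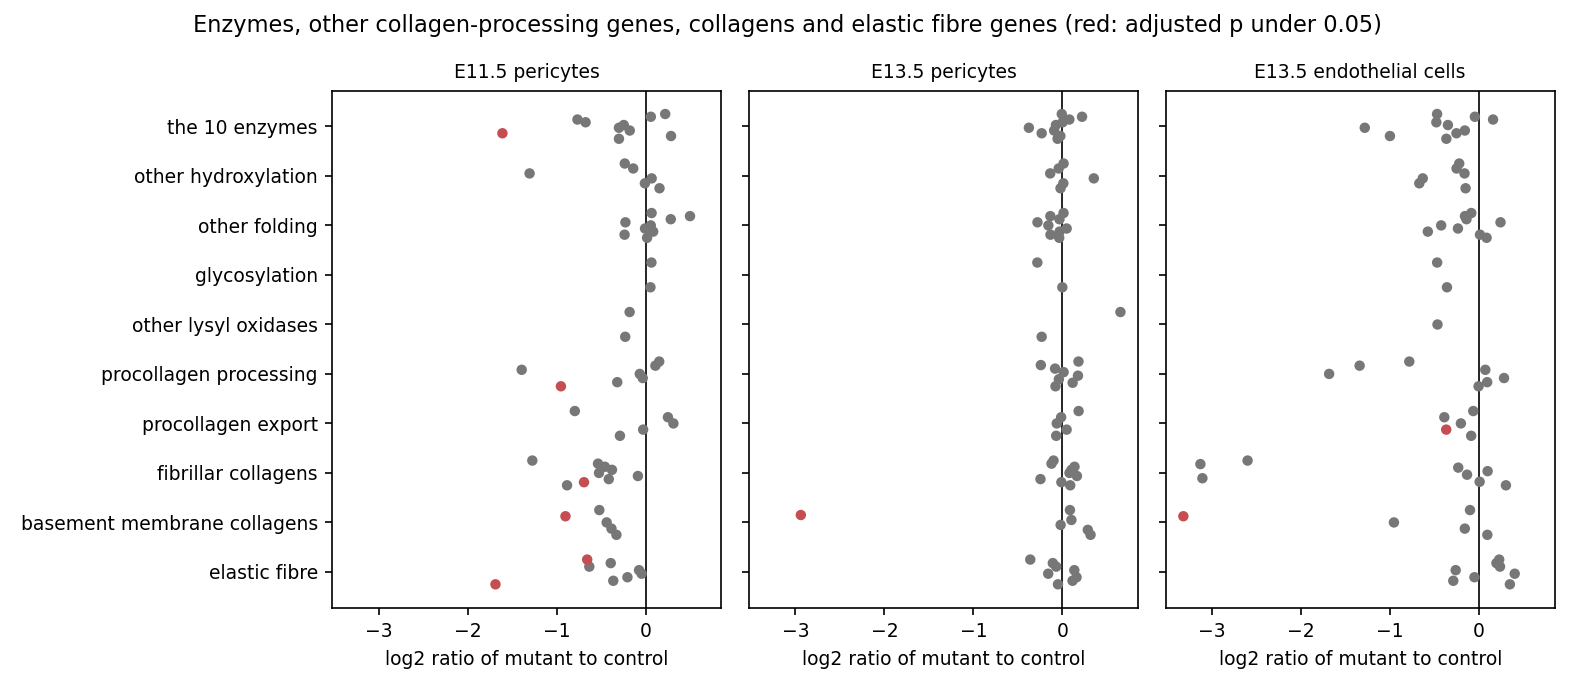
Log2 ratio of mutant to control (1 point per gene) for the 10 enzymes and for groups of other collagen-processing, collagen and elastic fibre genes in the 3 comparisons; red marks an adjusted p under 0.05. At E11.5 all 9 fibrillar collagens lie below 0, with Col1a2 (-0.69) called, while the 10 enzymes have a median of -0.27.

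P4ha1, P4ha2, Plod2 and Lox are known targets of hypoxia signalling, so genes of that response were set beside them. Of 15 hypoxia-induced genes tested at E11.5, 1 fell, the vessel growth factor gene Vegfa (log2 ratio -1.24, SE 0.33, adjusted p = 0.0130, DESeq2), none rose, and the median was -0.07, by the authors' deposited table. Of all genes tested at E11.5, 2.7% were called lower and 0.642% higher in mutants. Vegfa also differed between stages, by 1.16 (adjusted p = 0.0438, the normal test), and with the rescaled SE its adjusted p was 0.929 at E11.5 and 1.00 between stages. In E13.5 pericytes 1 of 15 rose, where 0.224% of all genes rose and 0.164% fell, and the median was 0.01. The gene that rose was the peptide gene Adm (1.02, SE 0.27, adjusted p = 0.0360, DESeq2), by the authors' deposited table. Rescaling multiplied the SE of E13.5 pericytes by 0.864, and the adjusted p of Adm was then 0.00262 (normal test). Endothelial cells had 1 of 14 higher, the glycolytic gene Aldoa (0.27), and 1 lower, the glycolysis regulator gene Pfkfb3 (-0.35), with a median of 0.05, by the authors' deposited table. Of all genes tested there, 5.11% were called higher and 2.19% lower. With the rescaled SE the adjusted p of Aldoa was 0.602 and that of Pfkfb3 0.585.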

How the data were processed

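Messenger RNA of sorted cells went through a KAPA library kit and NovaSeq sequencing, as the labels' protocols state. The submitters' processing notes list, for the authors' work, the tools Partek, Bowtie2 and DESeq2 and the build mm10, without versions; annotation, counting and model are not given in the sources used here. Per the file headers, the authors deposited for every gene a p-value with its FDR. The deposited ratio is the mutant mean over the control mean, and the deposited score, its signed fold, was not used. The authors' means were read as a signal of unstated scale, the normalized read level, so depth is unknown. The deposited FDR, equal to Benjamini-Hochberg over the genes that have one, is printed as the adjusted p and taken as the authors' DESeq2 result. The plan foresaw tests on values per sample, and its fallback to the authors' statistics applied.

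The implied SE is the log2 ratio divided by the normal deviate of the authors' p, taking it as two-sided and from a Wald test. A stage or cell type difference was divided by its combined SE and adjusted by Benjamini-Hochberg over all genes tested in both tables. Nothing says that samples came from separate litters, so p-values reflect the spread between these samples alone. Positions and lengths (longest transcript) come from GENCODE M21 on GRCm38, promoters from RefSeq. Strandedness of counting is not stated, and Plod2, Plod3, Lox and Loxl2 have exons that overlap another gene's. The software was matplotlib 3.10.9, scipy 1.17.1, pandas 2.3.3 and numpy 2.4.6 under Python 3.11.15, tested on simulated data. Alternatives covered the threshold, the low-gene filter, scaling, the spread and gene length.

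The members and lists were chosen with earlier results of these data known. All members and Tgfbr1 were named, and of each other list the called genes, or otherwise the gene with the smallest p. Col1a1, P4hb, Col2a1, Acan, Spp1, Runx2, Dlx5, Xist and the genes ranked above Serpinh1 were named outside this rule, after their values were seen.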

Additional observations from a re-analysis of the deposited data

Results flagged for a closer look

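The ratio of P4ha3 differed between stages in pericytes. Its E13.5 log2 ratio minus its E11.5 log2 ratio was 1.38 (SE 0.28), with log2 ratios of -0.23 at E13.5 and -1.61 at E11.5, and an adjusted p of 0.000736 by a normal test on the difference with Benjamini-Hochberg adjustment. With the rescaled SE the adjusted p of this test was 0.424. The pericyte tables share no samples and were normalized separately, and the control mean of P4ha3 was 2160 at E13.5 and 447 at E11.5 in the authors' deposited tables. At E13.5 Xist averaged 5.73 in mutants and 36145 in controls, so sex and genotype cannot be told apart there. Xist was not listed at E11.5, so sex was not checked at that stage.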

How the results depend on the processing

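No paired analysis was possible because the tables give no values per sample, and for the same reason no replicate could be left out. Over all genes, 646 calls at E11.5 became 1139 at an adjusted p under 0.1, 315 with a log2 ratio of at least 1 and 5 with the SE rescaled to the median statistic. The 78 calls of E13.5 pericytes became 17 and 142 with those last settings, and the 1323 of endothelial cells 247 and 49, or 2199 with group means scaled to the same sum, which shifted log2 ratios there by -0.13. Among the 10 genes, P4ha3 alone was called at E11.5 and between stages; with rescaled SE the count was 0 in each case. At an adjusted p under 0.1 or with scaling to the same sum it was 2 in each case, with Loxl1 added. Scaling also brought 1 call in endothelial cells in place of 0, Plod3 (log2 ratio -0.47, adjusted p = 0.0224, normal test). The sums used for that scaling include the erythroid markers, at 1716820 in mutant and 64010 in control endothelial cells. The 262 genes called between stages became 447 at 0.1, 445 with scaling and 2 with rescaled SE, and the 666 between cell types 1224 and 15 with scaling and rescaled SE. The adjusted p of P4ha3 at E11.5 ran from 1.15e-07 to 0.0569 over 5 alternatives, of which scaling alone can move its log2 ratio (to -1.66). Scaling adds 1 constant to all genes of a table, and it turned the sign of 2 uncalled values near 0, Serpinh1 in E13.5 pericytes (0.012) and the Loxl1 difference between cell types (0.065). Skipping the filter on low genes changed no count of called members. The length used moved the P4ha2 shares as given above; the longest coding transcript, chosen after seeing the data, moved no control share by over 1.5 times. The causes were not tested.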

Other observations

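The level of Serpinh1 relative to type I collagen varied between the groups. Its mean was 5.11 times that of Col1a1, the main chain of type I collagen, in mutant and 2.38 times in control pericytes at E11.5. At E13.5 it was 0.419 times that of Col1a1 in mutant and 0.448 times in control pericytes, and in endothelial cells 54.7 times in mutants and 93.4 times in controls, by means that are not divided by length, in the authors' deposited tables. Col1a1 means were 15585 in mutant and 28766 in control pericytes at E11.5, 126389 and 118865 at E13.5, and 1358 and 1101 in mutant and control endothelial cells, in the authors' deposited tables. Serpinh1 made up 0.323% of the summed means in mutant and 0.488% in control endothelial cells, and 0.505% and 0.448% in mutant and control pericytes at E11.5. These values carry no error, and no test was made.

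Per length, the order of the 10 genes differed between the cell groups. After Serpinh1 came Loxl1 at E11.5, with 545 in mutants and 928 in controls per kilobase, Lox in E13.5 pericytes, with 2629 and 2623, and Plod1 in endothelial cells, with 583 and 651. The lowest were P4ha3 at E11.5, with 60.9 in mutants and 186 in controls, P4ha2 in E13.5 pericytes, with 368 and 373, and Loxl1 in endothelial cells, with 27.7 and 24.8. Since normalization was done table by table, the order is read only within each table.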
